A study of Mus musculus with 12 samples.

Results

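Stored calcium and its refilling were followed through 10 genes, chosen as the core of store-operated calcium entry: the endoplasmic sensors Stim1 and Stim2, the pore subunits Orai1, Orai2 and Orai3, the inositol trisphosphate receptors Itpr1, Itpr2 and Itpr3, the kinase Itpkb and the potassium channel Kcna3. The members were the probe sets that the array's annotation assigned to one of these symbols alone, 19 of 45037 probe sets, and they measured 9 of the 10 genes, among 18193 genes with a probe set of their own. Itpr1 was not analysed here. Their levels were compared across the 4 stages of CD4 SP thymocytes of C57BL/6 mice aged 6 to 8 weeks, none of them treated. All cells were sorted from pooled thymi as CD4+CD8-CD25-NK1.1-, after lysis of CD8+ cells with antibody and complement. SP1 was Qa-2-6C10+CD69+, SP2 was Qa-2-6C10-CD69+, SP3 was Qa-2-6C10-CD69- and SP4 was Qa-2+6C10-CD69-. Each subset had 3 arrays, numbered as biological replicates 1 to 3. Since CD44 was not part of the sort for the arrays, SP4 could also hold mature T cells that had come back to the thymus. The arrays measured RNA from sorted populations, in which fewer cells of a type and less RNA per cell cannot be told apart.

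In T cells, engagement of the T cell receptor yields inositol trisphosphate, which opens its receptors in the endoplasmic reticulum and lets stored calcium out. The emptied store is sensed by STIM proteins, which move to the plasma membrane and open ORAI channels, and the calcium that enters activates calcineurin and the NFAT transcription factors. Potassium channels such as Kv1.3, the product of Kcna3, keep the membrane potential that drives calcium inward, and ITPKB, which phosphorylates inositol trisphosphate, is needed for the positive selection of mouse thymocytes.

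Across the stages, no gene of the store-operated machinery passed the test among unpaired arrays, and the few differences that did pass, with the replicate number as a block, all ran upward and all involved SP4. Orai3 and Itpkb were higher in SP4 than in SP1 with the block, as was 1 of the 2 probe sets of Orai2. The sensors Stim1 and Stim2, the principal T cell pore Orai1, the receptor Itpr3 and the channel Kcna3 passed in no comparison. Here a call is a Benjamini-Hochberg adjusted p under 0.05, over all probe sets, from a moderated test in limma on log2(intensity + 16), and fold changes are on that scale, which understates changes of low values. Without the block, 0 of the 9 genes and 0 of the 19 probe sets were called in SP4 vs SP1, where 1.08% of all probe sets were called (0.862% higher), and 2 genes and 3 probe sets had an unadjusted p under 0.05. The share of all probe sets at that unadjusted cut was not counted, here or below, so such counts cannot show an excess. With the block, 2 of the 9 genes (22.2%) and 3 of the 19 probe sets (15.8%) were called, all higher, against 5.16% of all probe sets called in either direction and 3.39% called higher. These shares are over all probe sets, dim and secondary ones included, whereas each gene was read by its brightest probe set. The share called over the 18193 genes was not counted, so the gene counts have no like share beside them. The median log2 fold change of SP4 over SP1 was 0.18 over the 9 genes and -0.01 over all genes, and 8 of the 9 genes lay above 0. All the calls with the block in SP4 vs SP1 depended on single arrays except that of Orai2: leaving out any 1 of the 3 SP1 arrays gave 0 called genes, leaving out replicate 2 of SP2 gave 4, and leaving out replicate 3 of every subset gave 0.

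**Figure D1:**
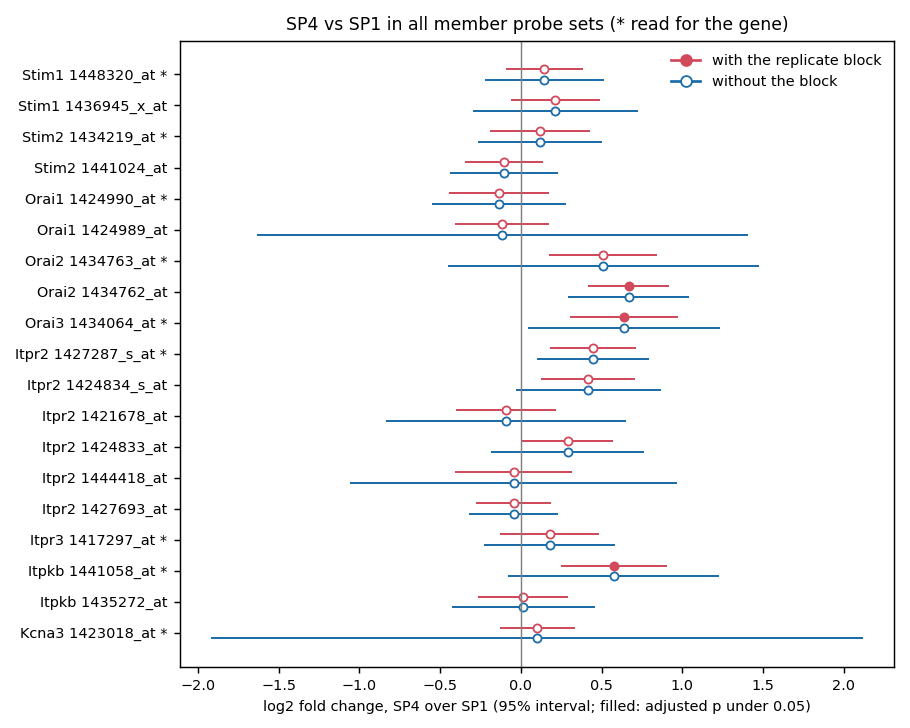
Log2 fold change of SP4 over SP1 with its 95% interval for each of the 19 member probe sets (rows), with the replicate block in red and without it in blue. Filled points, 3 with the block and 0 without it, have an adjusted p under 0.05, and an asterisk marks the probe set read for the gene.

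No member gene was called in SP2 vs SP1, SP3 vs SP2, SP3 vs SP1, SP4 vs SP3 or SP4 vs SP2, with or without the block. The shares of all probe sets called were 0%, 0%, 0.0111%, 0.16% and 0.557% in that order without the block, and 0.00888%, 0.22%, 0.329%, 1.16% and 2.65% with it. By limma without the block, the number of genes with an unadjusted p under 0.05 was 1 in SP4 vs SP2 and 0 in the other 4. With the block it was 0 in SP2 vs SP1, 2 in SP3 vs SP2, 2 in SP3 vs SP1, 3 in SP4 vs SP3 and 4 in SP4 vs SP2. These unadjusted counts have no share of all probe sets beside them and were not read as an excess. Of single probe sets, 2 of 19 (10.5%) were higher in SP4 vs SP2 with the block, against 1.84% of all probe sets, and they belonged to Orai2 and Itpr2. The moderated F test for any difference among the 4 subsets called 0 of 9 genes without the block, where 0.582% of all probe sets were called and 1 gene had an unadjusted p under 0.05. With the block it also called 0 genes, 5 of them with an unadjusted p under 0.05, and 1 of the 19 probe sets, that of Orai2, against 3.7% of all.

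**Figure D2:**
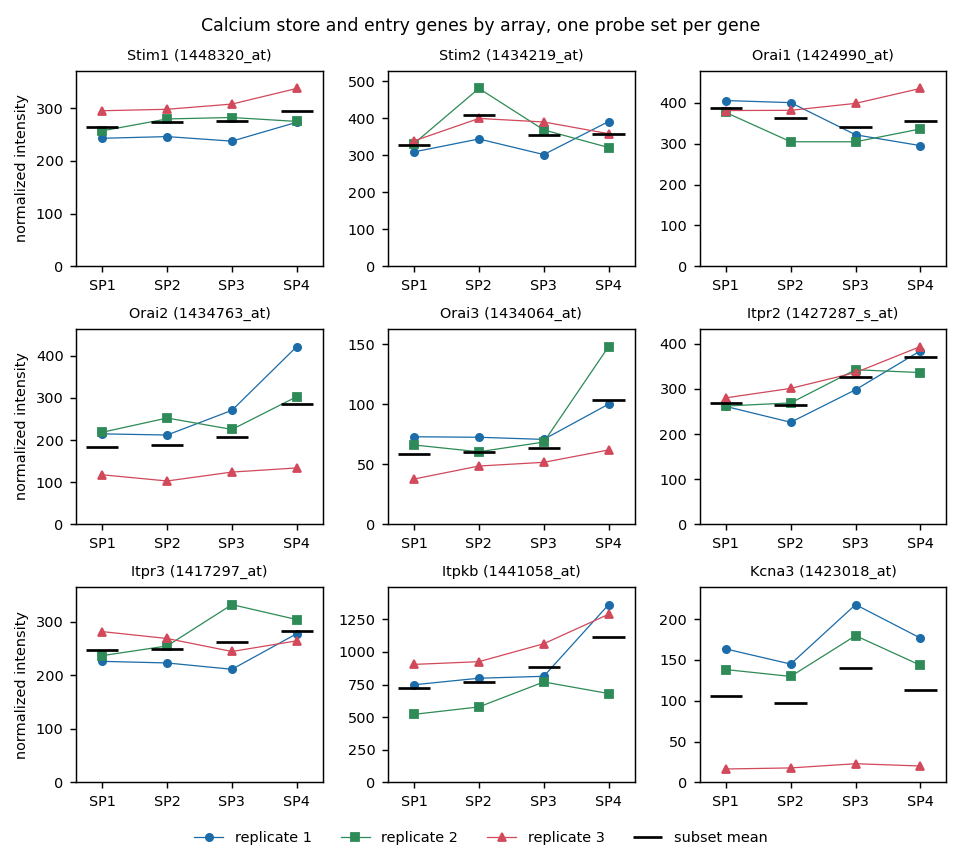
Normalized intensity (linear axis from 0) of the 9 measured genes in SP1 to SP4, one probe set per gene, with a coloured line for each replicate number and a black bar for the mean of each subset's 3 arrays. Orai2, Orai3, Itpr2 and Itpkb have their highest mean in SP4, and the Kcna3 arrays of replicate 3 lie between 16.5 and 22.9 in all 4 subsets.

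Stretches of genome at the starts of Orai2, Orai3 and Itpkb are shown because these were the genes with a higher probe set in SP4 than in SP1. Each is the 250 bases before 1 transcript start of the gene in RefSeq on GRCm38.p6, 5′ to 3′ on the gene's strand. For Orai3 that start is the start of the annotated gene, whereas the last 41 bases of the Orai2 stretch and the last 86 of the Itpkb stretch lie inside the annotated gene, which begins further upstream. Orai2 is taken from chr5:136170657-136170906 (minus strand), Orai3 from chr7:127769565-127769814 (plus strand) and Itpkb from chr1:180330226-180330475 (plus strand). Capitals mark GGAAA, the core bound by NFAT factors, or its reverse complement TTTCC. The core holds GGAA, the core of ETS sites.
Orai2: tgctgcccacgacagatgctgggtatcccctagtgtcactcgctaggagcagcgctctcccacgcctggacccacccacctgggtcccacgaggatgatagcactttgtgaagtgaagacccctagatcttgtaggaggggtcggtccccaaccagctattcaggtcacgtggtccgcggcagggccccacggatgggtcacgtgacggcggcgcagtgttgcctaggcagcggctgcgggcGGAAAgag
Orai3: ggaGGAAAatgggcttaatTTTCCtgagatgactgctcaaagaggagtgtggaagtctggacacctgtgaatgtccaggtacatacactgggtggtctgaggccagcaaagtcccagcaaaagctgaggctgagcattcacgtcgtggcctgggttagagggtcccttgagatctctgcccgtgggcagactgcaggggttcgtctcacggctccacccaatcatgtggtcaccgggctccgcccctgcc
Itpkb: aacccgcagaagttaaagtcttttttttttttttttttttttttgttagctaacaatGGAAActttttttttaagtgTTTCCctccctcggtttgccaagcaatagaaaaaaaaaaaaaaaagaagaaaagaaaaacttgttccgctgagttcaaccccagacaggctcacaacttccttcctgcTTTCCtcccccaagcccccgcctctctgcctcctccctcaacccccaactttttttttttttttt
Counted from these transcript starts, GGAAA or TTTCC began 8 bases before that of Orai2, 247 and 231 bases before that of Orai3, and 193, 173 and 65 bases before that of Itpkb, so that the Orai2 match and the nearest Itpkb match lie inside the annotated genes. All 9 measured members had such a stretch in RefSeq, 4 of them wholly outside the annotated gene, 3 partly inside it and 2, those of Stim1 and Itpr3, wholly inside it. Of the 9, 4 held the core on either strand, Kcna3 being the fourth with 1 match. The 5 without it were Stim1, Stim2, Orai1, Itpr2 and Itpr3. Of 32851 mouse promoters of the same length, 55.6% held it, so that a match was common, and no binding was measured.

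The release side of the pathway was read through Itpr2, Itpr3 and Itpkb. Itpr2, a receptor of the endoplasmic reticulum that releases calcium when it binds inositol trisphosphate, gave 261, 262 and 280 in SP1, 226, 269 and 301 in SP2, 298, 342 and 336 in SP3, with 384, 336 and 394 in SP4, in normalized intensity and in the order of replicates 1, 2 and 3. Every SP4 array lay above every array of SP1 and of SP2, and SP4 and SP3 overlapped. The mean was 371 ± 31.0 in SP4 and 268 ± 10.7 in SP1 (SD, n = 3 each), a log2 fold change of 0.45 (SE 0.119) that missed the threshold in limma with the block (adjusted p = 0.0504) and without it (adjusted p = 0.36). With the block it was called in 1 of the 12 fits that each left out 1 array. Over the other settings with the block, the adjusted p in limma ranged from 0.022 to 0.361.

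Itpr2 had 6 probe sets, and they disagreed. In SP4 vs SP1, 3 lay above 0 and 3 below. The probe set of next highest mean, 1424834_s_at, measured 251 ± 59.2 in SP4, 162 ± 34.7 in SP2 and 181 ± 11.3 in SP1 (SD, n = 3 each). With the block it was higher in SP4 than in SP2 by a log2 fold change of 0.58 (SE 0.131, adjusted p = 0.0353 in limma), with an adjusted p of 0.518 without the block. In SP4 vs SP1 the same probe set had a log2 fold change of 0.42 and an adjusted p of 0.0968 with the block.

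Itpkb gave 748, 522 and 904 in SP1, 798, 578 and 925 in SP2, 813, 770 and 1062 in SP3, with 1362, 681 and 1288 in SP4, in the order of replicates 1, 2 and 3. Within each replicate number SP4 stood above SP1, although the SP4 array of replicate 2 lay below 2 of the 3 SP1 arrays, so that the groups overlapped. The mean was 1110.4 ± 374 in SP4 and 725 ± 192 in SP1 (SD, n = 3 each). Itpkb was higher in SP4 with the block, by a log2 fold change of 0.58 (SE 0.148, adjusted p = 0.042 in limma), and did not pass without it (SE 0.296, adjusted p = 0.734). This call held in 4 of the 12 fits that each left out 1 array, with adjusted p between 0.0203 and 0.173: without SP2 replicate 2, SP3 replicate 1, SP3 replicate 2 or SP4 replicate 2. The second probe set of Itpkb, 1435272_at, averaged 781 ± 87.2 in SP4 and 783 ± 179 in SP1 (SD, n = 3 each), a log2 fold change of 0.02 with a 95% interval from -0.26 to 0.29 with the block. The 2 probe sets of Itpkb thus gave different answers, and which transcripts each one measures was not tested.

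Itpr3, another inositol trisphosphate receptor, had a single probe set. Its mean was 248 ± 29.5 for SP1 arrays, 249 ± 23.4 for SP2, 263 ± 62.5 for SP3 and 282 ± 20.2 for SP4 (SD, n = 3 each). The log2 fold change of SP4 over SP1 was 0.18, with a 95% interval from -0.13 to 0.48 with the block and from -0.22 to 0.58 without it.

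The sensors passed no test. Stim1, the main sensor of store emptying in T cells, gave 243, 257 and 295 in SP1, 246, 279 and 298 in SP2, 237, 282 and 308 in SP3, with 273, 275 and 337 in SP4. All 4 subsets overlapped, and in each of them replicate 3 was the highest. The log2 fold change of SP4 over SP1 was 0.15, with a 95% interval from -0.09 to 0.38 with the block, and a second probe set of Stim1 gave 0.21 without passing the test. Stim2, which senses smaller falls in stored calcium, was highest in SP2, at 408 ± 68.7 against 326 ± 15.5 in SP1 (SD, n = 3 each). The array of replicate 2 of SP2, at 481, was the highest of all 12, and the log2 fold change of SP2 over SP1 was 0.30 (SE 0.14 with the block, adjusted p = 0.624 in limma). In SP4 vs SP1 Stim2 had 0.12, with a 95% interval from -0.18 to 0.42. Its other probe set averaged 19.7, under the array medians of 30.5 to 32.8, and was not read further.

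The pore subunits differed among themselves. Orai1, the subunit that carries most store-operated entry in T cells, gave 406, 377 and 381 in SP1, 401, 305 and 382 in SP2, 322, 305 and 399 in SP3, with 295, 336 and 435 in SP4. The 3 SP4 arrays lay on both sides of the SP1 arrays. The log2 fold change of SP4 over SP1 was -0.14, with a 95% interval from -0.44 to 0.17 with the block and from -0.54 to 0.27 without it. These intervals hold both falls and rises, and they do not give the size of change that a call would have needed.

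Orai2, a subunit that forms mixed channels with ORAI1 in mouse T cells, was read by 2 probe sets. The one read for the gene, 1434763_at, gave 215, 218 and 118 in SP1, 212, 252 and 103 in SP2, 270, 225 and 124 in SP3, with 422, 303 and 134 in SP4, in the order of replicates 1, 2 and 3. Replicate 3 was the lowest in every subset, and within each replicate number the SP4 array was the highest. Its log2 fold change of SP4 over SP1 was 0.51 (SE 0.151 with the block, adjusted p = 0.0778, and adjusted p = 0.971 in limma without the block).

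The second probe set of Orai2, 1434762_at, gave 156, 186 and 161 in SP1, 145, 168 and 145 in SP2, 195, 246 and 178 in SP3, with 290, 304 and 237 in SP4. Every SP4 array lay above every array of SP1 and of SP2. The mean was 277 ± 35.5 in SP4, 152 ± 13.2 in SP2 and 168 ± 16.2 in SP1 (SD, n = 3 each). It was higher in SP4 with the block, by a log2 fold change of 0.67 over SP1 (SE 0.112, adjusted p = 0.00338) and of 0.79 over SP2 (SE 0.112, adjusted p = 0.00188), and both calls held in 12 of the 12 fits that each left out 1 array. Over the other settings with the block, the adjusted p in limma reached 0.047 against SP1 and 0.0784 against SP2. The call against SP2 thus did not hold in all of them. In limma without the block the adjusted p was 0.118 against SP1 and 0.0805 against SP2. Among the 4 subsets this probe set also passed the F test with the block (adjusted p = 0.00432).

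**Figure D3:**
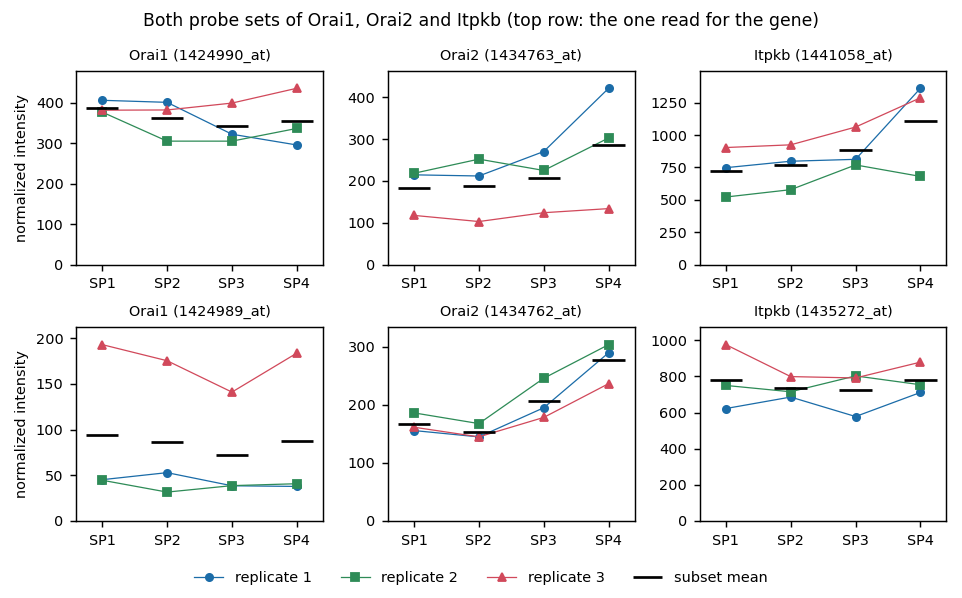
Normalized intensity (linear axis from 0) in SP1 to SP4 of both probe sets of Orai1, Orai2 and Itpkb, the one read for the gene in the top row, with a coloured line for each replicate number and a black bar for the subset mean. The Orai2 probe sets both have their highest mean in SP4, the second Itpkb probe set averages 781 in SP4 and 783 in SP1, and the second Orai1 probe set lies between 141 and 193 on the arrays of replicate 3 and between 31.5 and 52.8 on the others.

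Orai3, a subunit known from mammals alone and best described in other calcium currents, lay at chr7:127769815-127775150 on GRCm38.p6 and had 1 probe set. It gave 73.0, 66.1 and 37.8 in SP1, 72.6, 60.5 and 48.6 in SP2, 70.8, 68.6 and 51.7 in SP3, with 100.2, 148 and 62.0 in SP4. Replicate 3 was the lowest in every subset, and its SP4 array lay below 2 of the 3 SP1 arrays, while within each replicate number SP4 was the highest. The mean was 103 ± 43.2 in SP4 and 59.0 ± 18.7 in SP1 (SD, n = 3 each). Orai3 was higher in SP4 with the block, by a log2 fold change of 0.64 (SE 0.152, adjusted p = 0.0278 in limma), and did not pass without it (SE 0.27, adjusted p = 0.551). The call held in 8 of the 12 fits that each left out 1 array, with adjusted p between 0.0143 and 0.121, and was lost without any 1 of the SP1 arrays or without replicate 2 of SP4. Against SP2 and SP3 the adjusted p with the block was 0.0668 and 0.16.

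Kcna3 gave 164, 138 and 16.5 in SP1, 145, 130 and 17.8 in SP2, 218, 180 and 22.9 in SP3, with 177, 144 and 20.1 in SP4, in the order of replicates 1, 2 and 3. Replicate 3 was far below the others in every subset, and the lowest array of replicates 1 and 2 stood at 130. In all 3 replicate numbers SP3 was the highest of the 4 subsets. The replicate 3 values, however, lay under the array medians of 30.5 to 32.8, so their order carries little weight. The log2 fold change of SP3 over SP2 was 0.39 (SE 0.105, adjusted p = 0.205 in limma with the block), and that of SP4 over SP1 was 0.10, with a 95% interval from -0.13 to 0.33 with the block and from -1.91 to 2.11 without it. Leaving out single arrays turned the direction of both values in the fit without the block.

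Arrays of replicate 3 stood apart from those of replicates 1 and 2 for several members. Of the 19 probe sets, 7 had no overlap between the 4 arrays of replicate 3 and the other 8. The share of all probe sets without such overlap was not counted, so this is not read as a trait of these genes. The mean of replicate 3 was 0.119 times that of replicates 1 and 2 for Kcna3 and 0.452 times for the Orai2 probe set read for the gene, and it was 2.37 times for the Itpr2 probe set 1444418_at and 4.21 times for the second Orai1 probe set. Over 13737 probe sets with a mean of at least 100, the ratio had a median of 1.01, a 5th percentile of 0.433 and a 95th percentile of 1.91, and 0.269% lay at or below the ratio of Kcna3. The 2 probe sets of Orai1 thus had ratios of 1.16 and 4.21, and those of Orai2 had 0.452 and 0.854.

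**Figure D4:**
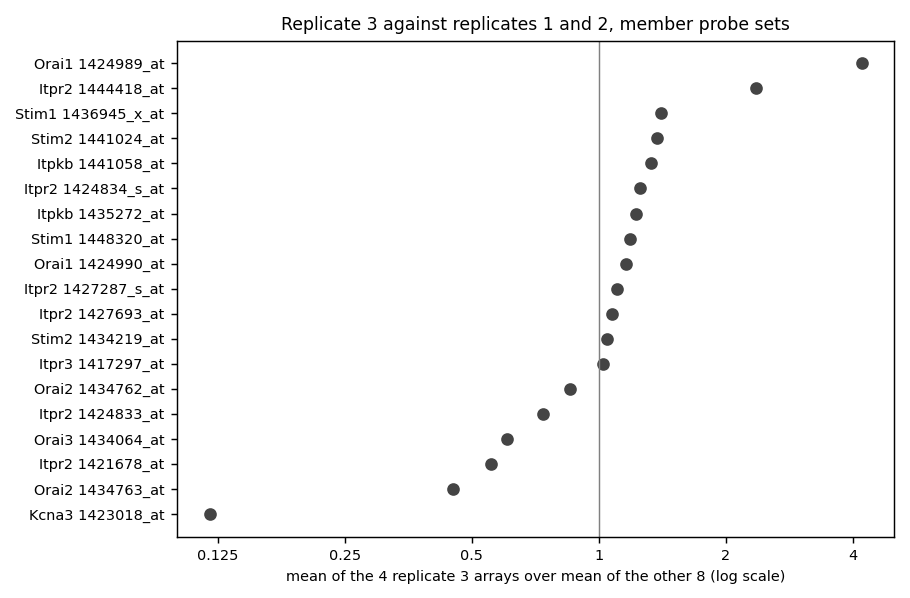
Mean intensity of the 4 arrays of replicate 3 over the mean of the 8 arrays of replicates 1 and 2 (log axis), for each of the 19 member probe sets. Kcna3 lies lowest at 0.119 and the second Orai1 probe set highest at 4.21, and the probe sets of one gene can lie on both sides of 1.

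Other cells and the sort were read once through their markers. The T lineage list (7 of 8 genes measured) summed to between 14333 and 19242 on all 12 arrays, and the probe set for the Qa-2 genes H2-Q9 and H2-Q7 lay at 1923 to 2561 in SP4 and at 180 to 785 in the other subsets. The NKT and innate-like T cell markers (9 of 10 measured) summed to 2155 to 2958 in SP4, against 314 to 831 in SP1, 357 to 594 in SP2 and 567 to 801 in SP3, and 8 of the 9 were higher in SP4 than in SP1 with the block. Markers of activated or memory T cells (7 of 7) summed to 2443 to 3969 in SP4, 1039 to 2134 in SP1, 1005 to 1748 in SP2 and 2194 to 2542 in SP3. With the block 5 of them were higher in SP4 than in SP1, against 3.39% of all probe sets called higher. These 2 lists were high in SP4 together with Orai2, Orai3 and Itpkb, and their part in those differences was not tested. Regulatory T cell markers (6 of 6) summed to 2408 to 4052 in SP4, against 2278 to 3788 in SP1, 3012 to 4666 in SP2 and 1530 to 2555 in SP3, so SP4 was not the highest in sum. In SP4 vs SP1, 4 of the 6 lay above 0 and 2 below. With the block 3 of the 6, Foxp3, Ctla4 and Ikzf4, were called higher in SP4 and 0 lower. Myeloid and dendritic cell markers (8 of 8) summed to 1055 to 1980 in SP4, 729 to 1545 in SP1, 450 to 870.5 in SP2 and 721 to 847 in SP3. With the block 3 of the 8 were higher in SP4 than in SP2, against 1.84% of all probe sets. They were Tyrobp by 2.45, Fcer1g by 1.17 and Cd68 by 0.97 on the log2 scale. In SP4 vs SP1, 1 was called with the block, Itgam, by 0.27. B cell markers (5 of 6) summed to 1350 to 3478 in SP4, 842 to 3557 in SP1, 685 to 1484 in SP2 and 1456 to 2594 in SP3. With the block 1 of them, Ighm, was higher in SP4 than in SP2, and 0 were called in SP4 vs SP1. In both of these lists SP2 had the lowest mean sum of the subsets, and SP4 and SP1 overlapped. The Orai2 and Itpr2 probe sets were called in the same comparison, and the part of these cells was not tested. No array held a value of 0, the smallest being 1.93 to 2.27. The cortical double positive thymocyte markers (12 of 13) ranged in sum over 2638 to 9682 for SP1, 2557 to 4090 for SP2, 3930 to 16336 for SP3 and 2604 to 5401 for SP4. Cd8a, against which the cells were sorted, lay between 82.9 and 1838 on the arrays of replicates 1 and 2 and between 16.3 and 81.5 on those of replicate 3, the same arrays on which Kcna3 was low, and its part in the Kcna3 values was not tested. Between SP3 and SP2 these markers had a median log2 fold change of 2.19, with 11 of 12 above 0, and Cd8a and Cd8b1 were higher in SP3 with the block. In SP4 vs SP3, 12 of 12 lay below 0 and Cd8a was lower with the block. Kcna3, which peaked in SP3, and Itpr2, at 326 ± 24.0 in SP3 and 265 ± 37.6 in SP2 (SD, n = 3 each), lay higher in SP3 than in SP2 without being called, and the part of double positive cells in these values was not tested. None of the 12 double positive markers was called in SP4 vs SP1 by limma, with or without the block, and with the block 3 had an unadjusted p under 0.05.

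Around the store, most genes of the pathway passed no test in SP4 vs SP1, and most of those that did were other ion channels and genes that respond to calcium. Of all probe sets, 1.08% were called in this comparison without the block and 5.16% with it, in either direction. The median log2 fold change over all genes was -0.01. In the regulators of the inositol trisphosphate receptors and the store, 0 of 17 measured genes were called with or without the block, 4 having an unadjusted p under 0.05 with it and 0 without it, and the median log2 fold change was -0.01. Of the signal inputs that lead from the T cell receptor to inositol trisphosphate, 0 of 13 were called, 3 having an unadjusted p under 0.05 with the block and 1 without it, with a median of 0.07. Of the pumps and mitochondrial uptake genes, 0 of 12 were called without the block and 1, Vdac1, a channel of the outer mitochondrial membrane, was lower with it. Vdac1 averaged 643 ± 301 in SP4 and 1039 ± 538 in SP1 (SD, n = 3 each), with a log2 fold change of -0.63 (adjusted p = 0.029 in limma with the block and 0.992 without it). The Vdac1 call was lost without any 1 array of SP1 or SP4.

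Among the 16 other ion channels of lymphocytes, 1 was higher in SP4 without the block and 5 with it, with a median log2 fold change of 0.15. Of all probe sets, 0.862% were higher without the block and 3.39% with it, and the median over all genes was -0.01. Hvcn1, the voltage-gated proton channel, passed in both fits. It gave 445, 434 and 476 in SP4, against 157, 182 and 184 in SP1, with no overlap, and its log2 fold change was 1.30 (SE 0.182, adjusted p = 0.00534 in limma without the block). That call held in 12 of the 12 fits that each left out 1 array. With the block alone, Lrrc8a, a subunit of the volume-regulated anion channel, was higher by 0.76 on the log2 scale, the cation channel Trpv2 by 0.56 and the mechanically gated channel Piezo1 by 0.54. Their adjusted p in limma was 0.0351, 0.0326 and 0.0339 in that order. The calls held in 7, 5 and 3 of the 12 fits that each left out 1 array. The fifth, Panx1, which forms ATP-releasing channels, had 0.48 and was named after its value was seen. Its call held in 7 of those 12 fits. With the block, between 1 and 5 channels were called when 1 array was left out, and the count was 1 without SP1 replicate 1, SP4 replicate 1 or SP4 replicate 2.

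Of the 20 measured effectors that respond to calcium, 2 were higher in SP4 than in SP1 without the block and 4 with it, with a median log2 fold change of 0.08. The shares of all probe sets called higher were 0.862% without the block and 3.39% with it. Ppp3cc, a catalytic subunit of calcineurin, gave 109.9, 106 and 147 in SP4, against 44.2, 57.7 and 49.1 in SP1, and its log2 fold change was 1.04 (SE 0.167, adjusted p = 0.0117 in limma without the block). The SP4 and SP1 arrays did not overlap, and the call held in 11 of the 12 fits that each left out 1 array, the exception being SP1 replicate 1. Dgka, a kinase that removes diacylglycerol, averaged 3238 ± 713 in SP4 and 1518 ± 195 in SP1 (SD, n = 3 each), with a log2 fold change of 1.07 (adjusted p = 0.0272 in limma without the block) that held in 6 of those 12 fits and was lost without any 1 array of SP1, SP2 replicate 1, SP4 replicate 1 or SP4 replicate 2. In the fit of SP4 and SP1 alone without the block, 0 of the 20 were called. With the block alone, the transcription factor genes Nfatc2 and Nfatc1 were higher, by 1.12 and 0.76 on the log2 scale, with adjusted p of 0.00183 and 0.00753. The mean of all Nfatc2 probe sets gave a log2 fold change of 0.26 that did not pass, and Nfatc1 was no longer called without SP1 replicate 2. On the probe set read for the gene, Nfatc2 averaged 377 ± 75.3 in SP4 and 168 ± 58.4 in SP1 (SD, n = 3 each).

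**Figure D5:**
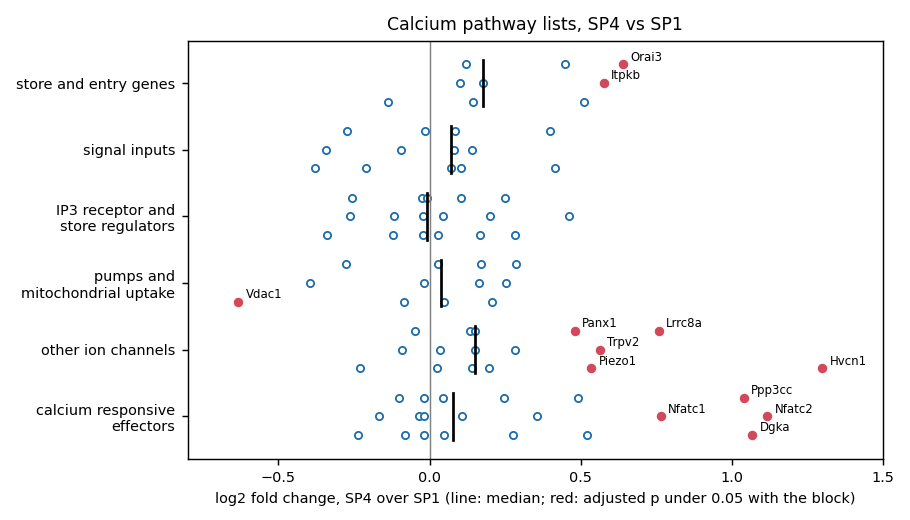
Log2 fold change of SP4 over SP1 for each measured gene of the 6 lists (rows, store-operated genes at the top), with a black line at each list's median and the genes called with the replicate block in red and named. The 9 store and entry genes have a median of 0.18, and the genes past 1 on the axis are Hvcn1, Nfatc2, Dgka and Ppp3cc.

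The genes whose pattern lay nearest to those of Orai3 and Itpkb were found by Pearson's r over the 12 log2 values, after the mean of each replicate number was subtracted, so that all points shared the same subsets and libraries. For Orai3, among 7183 genes, they were Capg (r = 0.95), Oasl1 (r = 0.94) and Lysmd2 (r = 0.93). Capg, an actin-capping protein gene, averaged 464 ± 111 in SP4 and 199 ± 7.25 in SP1 (SD, n = 3 each). For Itpkb, among 7182 genes, they were Ccdc88c (r = 0.99), 9030607L20Rik (r = 0.97) and Vsir (r = 0.96). Vsir, which encodes the inhibitory receptor VISTA, averaged 660 ± 61.3 in SP4 and 351 ± 64.2 in SP1 (SD, n = 3 each), and Ccdc88c averaged 337 ± 12.2 in SP4 and 230.1 ± 30.4 in SP1.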

How the data were processed

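RNA of 4 sorted subsets of CD4 SP thymocytes was hybridized to Affymetrix mouse arrays, 3 per subset. The deposited table holds linear intensity values per probe set, background-corrected and normalized by the authors. For that step the paper's methods give RMA, whereas the processing notes list MAS5, so the summary method is uncertain. Array medians lay between 30.5 and 32.8. Precision is limited by having 3 arrays per subset.

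By the platform annotation, 34945 of 45037 probe sets name 1 gene, 932 several and 9160 none. Each gene was read by its brightest probe set, with those ending in _x_at used as a last resort. After an offset of 16 and log2, subset means were estimated from all 12 arrays together in limma 3.58.1 (R 4.3.3, eBayes with a trend), and 6 pairwise comparisons and a moderated F test were made. P-values were adjusted over all probe sets within each comparison. The code was tested on simulated data without a replicate effect, in the fit without the block only, so the fit with the block was not tested in this way.

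The labels number biological replicates 1 to 3 in every subset. Deviations of same-numbered arrays from their subset means correlated between 0.279 and 0.883 in all 18 pairs, so the numbers were taken to pair the arrays, and a second fit added the number as a block. Arrays numbered 1 and 2 also correlated with each other, between 0.178 and 0.729, while those numbered 3 correlated with the others between -0.812 and -0.388, so in these values the pairing rested largely on replicate 3 standing apart. The paper's heat map captions give each array repeat a code shared by SP1 to SP4, so each repeat covered every subset. The codes have the form of dates, but the captions do not say what they stand for or which replicate number each belongs to. The paper describes them as independent preparations from pooled mice. P-values without the block thus measure the spread between preparations. Those with the block measure the scatter left after the shift shared by arrays of 1 number is removed. Neither measures the spread between mice.

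The 10 members and the gene lists were chosen with earlier results of these data known. All members were named. Of each other pathway list, at most 4 called genes were named, by size of change, and for each called gene the 3 nearest in pattern, among genes with a mean of at least 100. Alternatives were offsets of 1 and 64, no trend, quantile normalization, a filter at a mean of 50, the mean of all probe sets of a gene, fits of only the subsets compared, and fits without single arrays or without replicate 3. Sequences were from RefSeq on GRCm38.p6, and only the 250 bases before the transcript start that the sequence table uses were read. That start can lie inside the annotated gene.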

Additional observations from a re-analysis of the deposited data

How the results depend on the processing

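The count of member genes called in SP4 vs SP1 was 0 without the replicate block and 2 with the replicate block. With the block, alternatives moved the counts as follows, chosen after seeing the data. In SP4 vs SP2 the count was 2 with the filter at a mean of 50, 1 without the trend and 1 with the mean of all probe sets, against 0. In SP4 vs SP1 it was 1 without the trend and 1 in the fit of those subsets alone, between 0 and 4 when 1 array was left out, and 0 without replicate 3. Over all settings other than leaving out 1 array, the SP4 vs SP1 count ranged from 0 to 3. In the F test it was 2 without the trend and 1 with the mean of all probe sets. Without the block, the other settings called 0 member genes.

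Directions turned when single arrays were left out for Kcna3 (SP4 vs SP1 between -0.68 and 0.86, SP3 vs SP2 between -0.34 and 1.21), for the second Itpkb probe set (-0.13 to 0.18, and -0.047 to 0.11 with the block), for the second Orai1 probe set (-0.73 to 0.48), and with the block for Stim2 (-0.031 to 0.24) and Orai1 (-0.25 to 0.0054, with -0.30 when replicate 3 was left out of every subset). With the mean of all its probe sets, Orai2 was higher in SP4 than in SP1 with the block (log2 fold change 0.59, adjusted p = 0.00764). Of 707 single-gene values without the block, 671 kept direction and side of the threshold, and of 673 with it, 584. Nearly all results without the block were uncalled in the main fit, so keeping that side says little about stability. With the block, 74 values lost a call, 10 gained one and 5 changed direction. Without it these numbers were 9, 16 and 11. Dim probe sets such as the second of Stim2, and the 3 arrays per subset, limit what could be detected.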
